A study of Homo sapiens with 4 samples.

Results

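AU-rich element binding proteins are represented here by 7 genes, the 3 genes of the ZFP36 family (ZFP36, ZFP36L1 and ZFP36L2) and 4 others (ELAVL1, KHSRP, TIA1 and TIAL1). They were chosen by name, from a table of 13957 genes in which all 7 were found, and the choice was made with fold changes of the study's own comparison known. RNA was sequenced from MDA-MB-231 Fluc cells, a triple-negative breast cancer line that carries a luciferase gene, after 2 h with 50 μM cordycepin (2 libraries) or with the DMSO vehicle (2 libraries). Cordycepin is 3′ deoxyadenosine, an adenosine analogue whose triphosphate can end RNA chains and inhibit polyadenylation. The table gives 1 mean level for each gene over the 4 libraries, as log2 CPM (read counts scaled to library size), together with the authors' own fold changes and p-values, which are not used here. A mean over treated and vehicle libraries is the level of neither group, so no effect of cordycepin is given for any gene below. No spread between libraries can be given either, and the depth of each library is unknown.

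AU-rich elements are stretches of A and U in the 3′ UTR (the part of an mRNA after the stop codon) that shorten the life of many mRNAs of growth factors, cytokines and early response genes. Proteins of the ZFP36 family bind them through CCCH zinc fingers and recruit the CCR4-NOT complex, which removes the poly(A) tail. KHSRP, a protein with KH domains, also speeds decay, whereas ELAVL1 (HuR) often stabilises the mRNAs it binds, and TIA1 and TIAL1 (TIAR) can hold them back from translation in stress granules. The mRNAs of some of these proteins carry AU-rich elements themselves.

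The AU-rich nonamer TTATTTATT is a preferred binding site of the ZFP36 family, and it was searched in the 3′ UTR of each member's own mRNA, using the canonical transcript of GENCODE release 44 (build GRCh38). It was found once in each of the 3 ZFP36 family genes and once in ELAVL1, but not in KHSRP, TIA1 or TIAL1. When all annotated 3′ UTRs of a gene were merged, TIAL1 held 1 nonamer as well, and the counts of the other members did not change. The 4 sites in canonical transcripts are shown because they are the matches to the motif, each in 30 bases of the transcript strand with the nonamer in capitals.
ZFP36: tatgacgactTTATTTATTctaatatgatt
ZFP36L1: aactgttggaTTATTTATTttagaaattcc
ZFP36L2: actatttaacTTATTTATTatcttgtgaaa
ELAVL1: atttatgtatTTATTTATTgaagtgtgaaa

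The ZFP36 window lies on the plus strand at chr19:39409196-39409225. The ZFP36L1 window is at chr14:68788076-68788105, the ZFP36L2 window at chr2:43223447-43223476 and the ELAVL1 window at chr19:7961827-7961856, all on the minus strand. Outside the capitals the windows differ. That of ZFP36L2 holds a further copy of ATTTA, the pentamer core of AU-rich elements, just before the nonamer. The ELAVL1 window holds a copy at 1627 bases after the stop codon and another at 1635 that runs into the nonamer at 1637. Of the 11578 genes in the table with a canonical 3′ UTR of at least 9 bases, 9.85% hold the nonamer at least once. This share takes no account of length. The median 3′ UTR of these genes was 1372.5 bases, and all members except ZFP36 have a longer one, with more room for a match. A match shows that these letters are present in the annotated transcript, and binding was not measured.

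The pentamer ATTTA, which is also contained in each nonamer, was more evenly spread. It occurred 5 times in the 3′ UTR of ZFP36, which is only 708 bases long, and this density of 7.06 per kb was above that of 97.1% of genes. By count alone ZFP36 was above 65.4% of genes, as were ZFP36L2 and TIAL1, while ELAVL1 and TIA1 were above 89.8%. ZFP36L1 had 8 pentamers in 1871 bases (4.28 per kb, above 86.6% of genes) and ZFP36L2 had 5 in 1917 bases (2.61 per kb, above 65.6%). Across all genes with a 3′ UTR the median density was 1.74 per kb, so all 3 family members lay above it, as did TIA1, ELAVL1 and TIAL1. Among the others, TIA1 had 13 pentamers in 3275 bases (3.97 per kb, above 84.2% of genes). ELAVL1 had 13 in 4910 bases (2.65 per kb, above 66.3%). In ELAVL1, 5 of them lay between 1605 and 1639 bases after the stop codon, up to and within its nonamer. TIAL1 had 5 pentamers in 2200 bases (2.27 per kb, above 59.7%), and 15 in the 5384 bases of all its annotated 3′ UTRs merged. KHSRP was the exception, with a single pentamer in 1922 bases (0.52 per kb), a density above that of 28.6% of genes. Base composition differed as well. The KHSRP 3′ UTR was 48.4% A or T, compared with a median of 57.9% over all genes, and those of TIA1 and TIAL1 were 67.5% and 68.7%. ZFP36, in contrast, had the highest density of the 7 at a composition of 56.9% A or T, near the median. All 7 canonical transcripts held the polyadenylation signal AATAAA within their last 50 bases. The share of all genes that hold it there was not counted, so it cannot be called a trait of the members.

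**Figure D1:**
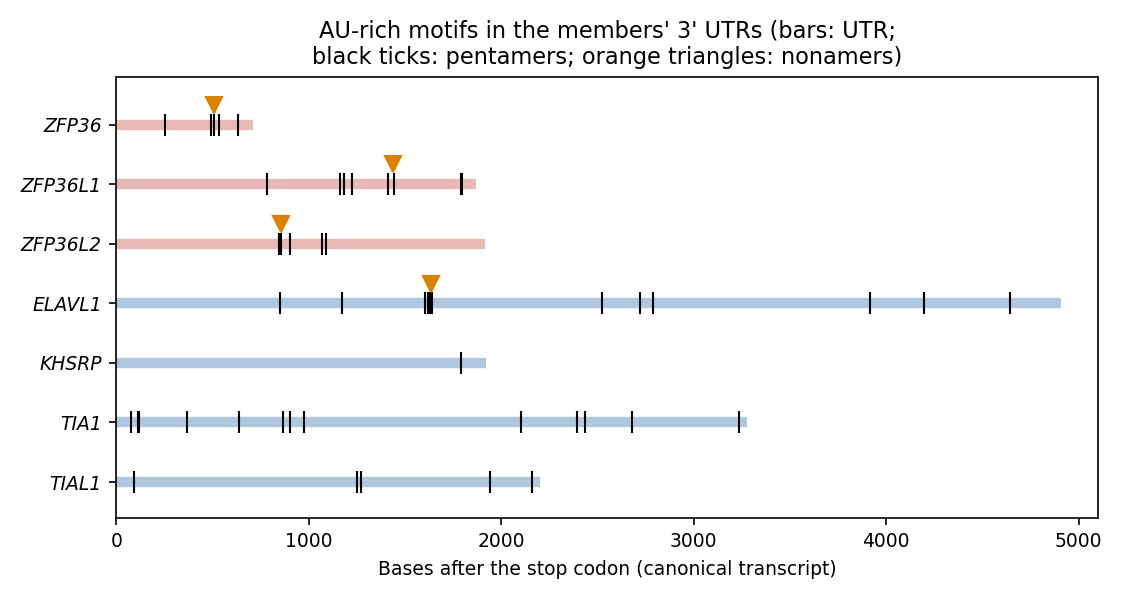
Each bar is the 3′ UTR of a member's canonical transcript, drawn to scale in bases after the stop codon (red, ZFP36 family; blue, other members), with black ticks for ATTTA pentamers and orange triangles for nonamers. The nonamer of ELAVL1 lies at the end of a run of pentamers. In ZFP36L1 the nonamer is at 1438 bases, and the nearest pentamers outside it are at 1410 and 1793. KHSRP has 1 pentamer near the end of its 3′ UTR.

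The members' mean levels were then examined. The authors' mean for KHSRP (ENSG00000088247, chromosome 19, 6413348 to 6424794) was 8.85 on the log2 CPM scale, or 462 CPM, which placed it above 97.8% of all genes. ELAVL1 (ENSG00000066044, chromosome 19, 7958573 to 8005659) followed at 7.52, or 183 CPM, above 92.3% of genes. These were the highest of the 7, and both encode widely expressed proteins of the nucleus and cytoplasm.

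In the ZFP36 family the levels were far apart. ZFP36L1 (ENSG00000185650, chromosome 14, 68787660 to 68796253) had an authors' mean of 6.97 on the log2 CPM scale (125 CPM, above 87.2% of genes). ZFP36L2 (ENSG00000152518, chromosome 2, 43222402 to 43226606) had 4.31 (19.8 CPM, above 45.4% of genes), under the median gene at 4.58. Its place depends on the genes it is compared with, as it was above 38.1% of protein-coding genes and above 27.2% of genes outside the lowest 25% of levels. ZFP36 (ENSG00000128016, chromosome 19, 39406847 to 39409412), which encodes tristetraprolin, the founding member of the family, had 2.73 (6.61 CPM) and lay above only 23.2% of genes. Thus ZFP36L1 made up 82.6% of the summed CPM of the family, ZFP36L2 13.1% and ZFP36 4.37%.

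The translational repressors also differed from each other. TIAL1 (ENSG00000151923, chromosome 10, 119571802 to 119597029) had an authors' mean of 6.89 on the log2 CPM scale (118 CPM, above 86.4% of genes), close to that of ZFP36L1. TIA1 (ENSG00000116001, chromosome 2, 70209444 to 70248660) had 4.88 (29.4 CPM, above 55.0% of genes), and the CPM of its paralogue TIAL1 was thus 4.02 times that of TIA1. Altogether, 5 of the 7 members were above the median of all genes in log2 CPM, the exceptions being ZFP36 and ZFP36L2. Against protein-coding genes only, TIA1 also fell below the median, leaving 4 above it.

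As longer transcripts give more reads, levels of different genes were compared per kilobase (kb) of the canonical transcript. On the scale of log2 CPM per kb, KHSRP was again highest at 6.75, and was followed by ZFP36L1 at 5.37. TIAL1 and ELAVL1 came next at 4.95 and 4.92, a difference of 0.03 that depends on the length used. TIA1 at 2.66, ZFP36L2 at 2.42 and ZFP36 at 1.92 formed the lower end, all under the median of 3.04 over all genes. For TIA1 and ZFP36L2 this depended on the length used. With coding lengths TIA1 (4.66 per kb) was above the median of 4.38, and with merged exons ZFP36L2 (2.42 per kb) was just above the median of 2.39, so that 5 members instead of 4 were above the median in either case. With the authors' own gene lengths ZFP36L2 (2.42 per kb) was just under the median of 2.43, and 4 members were above it. ELAVL1 moved from the second to the fourth place because its transcript, with 6054 bases, is the longest of the 7, whereas ZFP36L1 has 3017 bases and ZFP36 has 1747. With the merged exons of each gene as its length, ELAVL1 (4.72 per kb) was second again and ZFP36L1 (4.27 per kb) came after it, and ZFP36L2 (2.42 per kb) stood above TIA1 (2.15 per kb). KHSRP stayed first and ZFP36 last with each of the 4 lengths tried. Between these ends the order of neighbours is not established, as no spread between libraries is known.

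**Figure D2:**
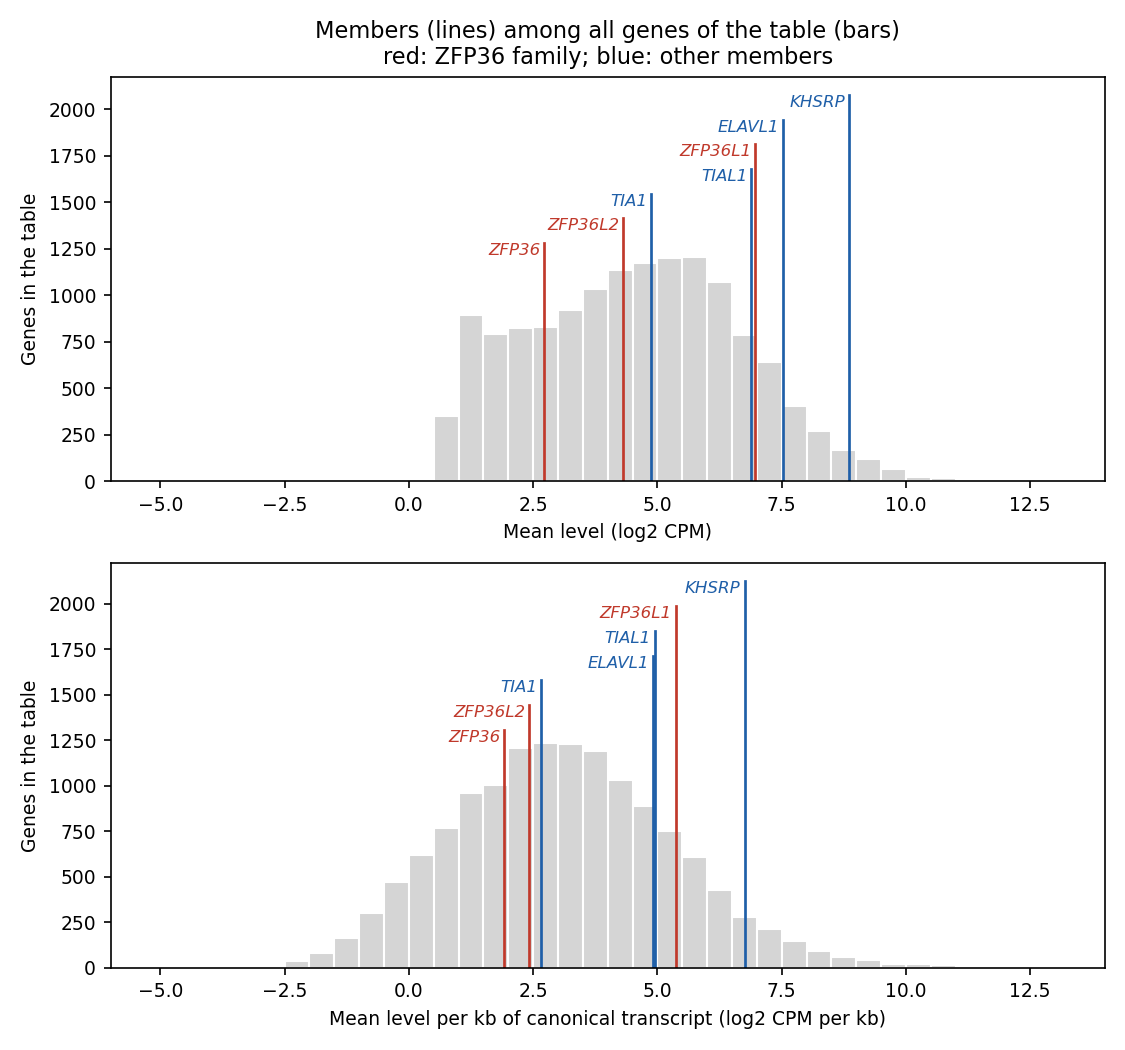
Grey bars count all genes of the table by mean level in steps of 0.5, as log2 CPM (top) and as log2 CPM per kb of canonical transcript (bottom), and vertical lines mark the ZFP36 family (red) and the other members (blue). ZFP36 and ZFP36L2 lie to the left and KHSRP to the right in both panels, while ELAVL1 is to the right of ZFP36L1 in the top panel and to its left in the bottom panel.

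Summed per kb of canonical transcript, the 4 other members together came to 175 CPM per kb and the 3 ZFP36 family genes to 50.6 CPM per kb, which is 22.4% of the total of all 7. The ratio of other members to family was 3.47 on this scale and 5.24 in CPM without regard to length. KHSRP alone gave 108 of the 175 CPM per kb of the other members, and 462 of their 793 CPM without regard to length. The sums also set 4 genes against 3. As KHSRP, like the family, speeds decay, the ratio does not divide the proteins by their action on mRNA. On every scale ZFP36L1 accounted for most of the family, from 68.9% of its sum with merged exons to 86.0% with coding lengths. The smallest and largest members, ZFP36 and KHSRP, were 28.5-fold apart per kb of canonical transcript.

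The ZFP36 family genes also had a compact structure in common, which was not used to choose them. As genes of the same family they are not independent examples of it. Each canonical transcript has 2 exons, compared with a median of 8 over all genes, and the genes span 2.57 kb (ZFP36), 4.21 kb (ZFP36L2) and 8.59 kb (ZFP36L1), where the median span was 27.7 kb. The other members had 6 exons over 47.1 kb (ELAVL1), 19 over 11.4 kb (KHSRP), 13 over 39.2 kb (TIA1) and 12 over 25.2 kb (TIAL1). KHSRP was therefore the most finely divided gene of the 7, and ELAVL1 and TIA1 were the longest.

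RefSeq promoters (250 bases before to 50 after the start, GRCh38.p14) matched 5 of the 7 members with 7 start sites in all. Promoters of ELAVL1 and ZFP36L2 were not analysed here. The cyclic AMP response element TGACGTCA was found at 1 of these 7 starts, the downstream one of the 2 starts of ZFP36L1. It begins 52 bases before that start, within chr14:68793451-68793478 on the minus strand, in the sequence gtggaatgagTGACGTCAcagccgcgct with the element in capitals. It occurs in 1.85% of all 35116 promoters on either strand. The TATA box letters TATAAA were found at 1 start of TIA1 and in 11.5% of all promoters. They were searched on both strands and at any position, so a match need not be a TATA box. A single fixed form of the serum response element was also searched. It was found at 0 of these 7 starts and in 0.034% of all promoters, a share so low that its absence says little. The matches to these motifs are descriptions of the sequence, and no factor was measured.

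Reads that several genes share could affect the levels of some members. Of the 75-base words of each canonical transcript, the read length used, none occurred in a transcript of another gene for ZFP36, ZFP36L1, ZFP36L2, ELAVL1 or TIAL1. In TIA1, 3.00% of these words also occurred in transcripts of C2orf42, its neighbour on the same strand with 211 shared exon bases and an authors' mean of 2.31 on the log2 CPM scale. ZFP36L1 also overlaps a gene on its own strand, the long noncoding RNA gene ENSG00000289626, which shares 512 exon bases with it (7.92% of its merged exons) and is not listed in the table. Whether reads of that gene enter the level of ZFP36L1 was not tested. In KHSRP, 0.405% occurred in the pseudogene KHSRPP1. On the opposite strand, exons of an antisense RNA gene (ENSG00000287387) covered 22.4% of the exon bases of ZFP36L2, and those of another (ENSG00000269813) 7.58% of ELAVL1. Neither antisense gene is listed in the table. The libraries were stranded, but the strand setting of the counting is not given in the sources used here, so whether the level of ZFP36L2 includes antisense reads was not tested.

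Other genes of the pathway were taken from 5 lists and described per kb of canonical transcript. All 10 listed subunits of the CCR4-NOT complex were in the table, with a median of 3.98 log2 CPM per kb, and 9 of them were above the median of all genes. CNOT3 was highest at 4.74 log2 CPM per kb and CNOT6L, one of the deadenylases, lowest at 1.51. On this scale ZFP36L1 was above each subunit, and ZFP36 and ZFP36L2 were below all of them except CNOT6L. The 9 decapping and exonuclease genes had a lower median of 2.52 log2 CPM per kb and ranged from DCP1B at 0.74 to EXOSC10, an exosome nuclease, at 5.36. In log2 CPM without regard to length, 8 of these 9 were above the median gene, but per kb only 4 were.

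The kinases and 14-3-3 proteins that act on ZFP36 proteins were high. All 10 were above the median of all genes, with a median of 6.54 log2 CPM per kb. The lowest was MAPK14 (p38α) at 5.34 log2 CPM per kb, near ZFP36L1, and the highest was the 14-3-3 gene YWHAE at 8.75. Of 15 other proteins that bind AU-rich or neighbouring 3′ UTR elements, 12 were in the table, with a median of 4.16 log2 CPM per kb. They ran from ZC3H12A (Regnase-1), a nuclease of inflammatory mRNAs, at 0.63 to NCL (nucleolin) at 8.25. ELAVL2, ELAVL3 and ELAVL4, the neuronal relatives of ELAVL1, were not listed in the table, so ELAVL1 was the only gene of its family there.

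Of 14 transcripts well known for AU-rich elements, 9 were in the table and TNF, CXCL1, CXCL3, PTGS2 and CSF2 were not. Their median was 4.28 log2 CPM per kb, and they ranged from FOS at -0.10 to CCND1 (cyclin D1) at 7.68. The levels of these 9 fell apart, with 5 above the median of all genes and 4, namely IL6, CXCL8, CXCL2 and FOS, at 1.27 log2 CPM per kb or lower. The nonamer was found in the canonical 3′ UTR of 4 of the 9. The median pentamer density of the 9 was 6.20 per kb. Among the 7 members only ZFP36 was above this value, at 7.06 per kb. The next member, ZFP36L1, had 4.28 per kb, and the median of the members was 2.65 per kb.

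**Figure D3:**
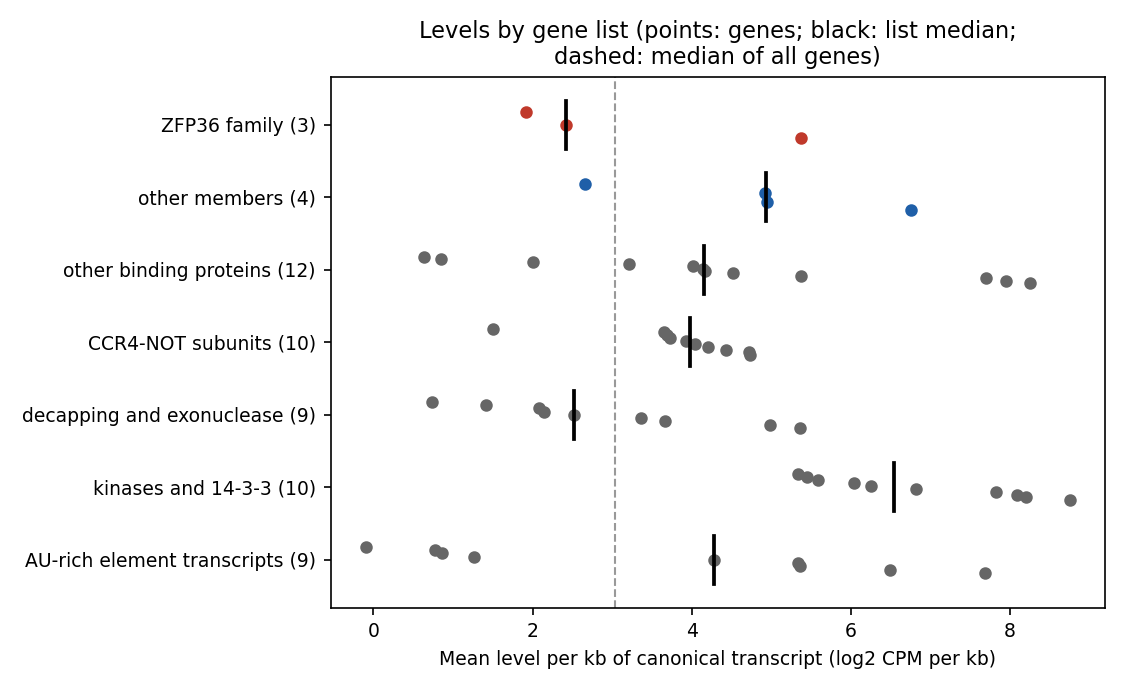
Points are genes by mean level in log2 CPM per kb of canonical transcript, black bars are the median of each group, numbers in brackets are genes in the table, and the dashed line is the median of all genes at 3.04. On this scale ZFP36L1 is at 5.37 and its relatives are under the dashed line (with merged exon lengths ZFP36L2 was just above the median), while all kinase and 14-3-3 genes are above it.

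As a check of the cell line, VIM, CD44, EGFR, KRT8 and KRT18 were high, the lowest of them, KRT18, being above 95.5% of genes in log2 CPM. Per kb of canonical transcript the lowest of them was EGFR at 5.34 log2 CPM per kb, above 84.3% of genes. ESR1, PGR, the leukocyte gene PTPRC and the endothelial gene PECAM1 were not listed. ERBB2 was present at 6.49 log2 CPM, above 81.8% of genes, and the fibroblast collagen gene COL1A1 at 3.36, above 31.1%. The genes next to KHSRP in level were ANXA5 (8.84 log2 CPM) and SURF4 (8.86), and those next to ZFP36 were PTN (2.72) and SPINT1 (2.73).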

How the data were processed

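RNA of 4 libraries of MDA-MB-231 Fluc cells (2 with cordycepin, 2 with vehicle) was sequenced by the authors as 75 bp paired-end reads after ribosomal depletion, mapped to GRCh38.p13 and counted with rsubread. The submitters' processing notes also list TopHat, HTSeq, DESeq and Cufflinks, with no role stated. The authors' deposited table holds, for each gene, a mean level as log2 CPM, a gene length, and the fold change, F statistic, p-value and adjusted p-value of the authors' comparison of cordycepin with vehicle. Those comparison columns were not used, and the table holds 0 columns of values per sample, so no test was made. The scaling and the filter on low counts behind the deposited log2 values are not given in the sources used here.

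The members and the gene lists were chosen with earlier results of these data known. The genes named are the members, list members at either end of a list or missing from the table, genes overlapping a member and neighbours in level; any other gene was named after its values were seen. A percentile is the percent of genes with a lower level. GENCODE release 44 (GRCh38) gave canonical transcripts for 99.7% of genes, and each printed 3′ UTR window was checked against the genome sequence. The table's start and end were those of GENCODE for 82.1% of these genes. Motif searches and percentiles were tested on simulated data. The alternatives were other lengths, protein-coding genes only, genes above the lowest 25% of levels, and merged 3′ UTRs. Python 3.11.15, numpy 2.4.6, pandas 2.3.3 and matplotlib 3.10.9 were used.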

Additional observations from a re-analysis of the deposited data

How the results depend on the processing

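No paired analysis was possible because values of single libraries were not in the table, and for the same reason no replicate could be left out and no count test was run. Compared with the order per kb of canonical transcript, 2 of the 7 members kept their place with merged exon lengths, 4 with coding lengths, and 2 with the lengths of the deposited table, an alternative that was chosen after seeing the data. The number of members above the median was 4 both against protein-coding genes and against genes above the lowest 25% of levels. The median of the decapping and exonuclease genes less that of all genes turned negative per kb, at -0.52. Merging all annotated 3′ UTRs left the number of nonamers as it was in 6 of the 7 members, and in TIAL1 it became 1, while its pentamers rose from 5 to 15. Depth per library is unknown, so the precision of low levels such as that of ZFP36 cannot be given.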
